A study of Homo sapiens with 4 samples.

Results

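The 10 genes described here mark astroglia, the supporting cells of the brain, and were measured in embryoid bodies treated with the compound TBBD or with its vehicle. These were SOX9, NFIA, NFIB, NFIX, GFAP, S100B, SLC1A3, AQP4, GLUL and ALDH1L1. They were chosen by gene symbol, from all probesets (small groups of array probes that read the same stretch of a gene) whose only annotated symbol is one of these names. That gave 120 of 247312 probesets and 10 of 18640 genes. Both treatments used embryoid bodies, aggregates in which embryonic stem cells start to differentiate, made from the human line BG01V, whose karyotype is variant. TBBD-treated embryoid bodies received 10 µM TBBD for 48 h and controls received DMSO, in general between day 2 and day 4 of their formation. TBBD is ellagic acid, and per the series title it inhibits methylation of histone H3 at arginine 17. Each group held 2 Affymetrix Human Gene 1.0 ST arrays, numbered replicate 1 and replicate 2, and the labels do not tell if cultures were separate, so that p-values cover the spread of these arrays and nothing wider.

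Astroglia arise from neural stem cells after neurons do. NFIA, a nuclear factor I transcription factor switched on by Notch signalling and by SOX9, opens the gliogenic phase in the developing spinal cord, and STAT3 and SMAD proteins, activated by LIF or CNTF and by BMP, then switch on GFAP. The genes fall into regulators (SOX9, NFIA, NFIB, NFIX), the intermediate filament GFAP and the calcium-binding protein S100B, the membrane proteins SLC1A3 and AQP4, and the enzymes GLUL and ALDH1L1. Several are not particular to astroglia: SOX9 is also used by cartilage and endoderm, and GLUL, which makes glutamine, by many growing cells.

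Nuclear factor I proteins bind the palindrome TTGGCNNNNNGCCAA and, more weakly, its half-site TTGGC. RefSeq promoter windows (GRCh38.p14, 250 bases before to 50 after a gene's start) were found for 7 of the 10 genes, in 28 windows. No window was found for SOX9, GFAP and S100B, so the counts below do not cover them. On either strand, 13 of the 28 windows held the half-site, from 6 genes, and 45.6% of all 35116 windows held it. The full palindrome was in 0 of the 28 and in 0.0285% of all windows. The letters TTCNNNGAA, bound by STAT proteins, were in 2 of the 28, those of AQP4 and SLC1A3, and in 7.66% of all. Windows of the nuclear factor I gene NFIA and of the 2 genes with the highest signal, GLUL and SLC1A3, are printed below in lower case with the half-site in capitals. They were taken from chr1:182391741-182392040 (minus strand), chr5:36606356-36606655 (plus strand) and chr1:61076977-61077276 (plus strand).
GLUL: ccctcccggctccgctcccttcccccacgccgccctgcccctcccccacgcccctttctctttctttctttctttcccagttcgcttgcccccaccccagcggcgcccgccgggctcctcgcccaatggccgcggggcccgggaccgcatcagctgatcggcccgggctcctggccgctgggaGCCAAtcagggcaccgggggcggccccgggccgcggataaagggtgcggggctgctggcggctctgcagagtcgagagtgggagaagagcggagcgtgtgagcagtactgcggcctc
SLC1A3: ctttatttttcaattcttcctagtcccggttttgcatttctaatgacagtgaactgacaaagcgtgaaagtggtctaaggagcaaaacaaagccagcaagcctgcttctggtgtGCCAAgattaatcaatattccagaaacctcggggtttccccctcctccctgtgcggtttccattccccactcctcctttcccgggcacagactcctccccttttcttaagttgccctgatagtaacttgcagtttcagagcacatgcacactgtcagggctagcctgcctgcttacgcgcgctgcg
NFIA: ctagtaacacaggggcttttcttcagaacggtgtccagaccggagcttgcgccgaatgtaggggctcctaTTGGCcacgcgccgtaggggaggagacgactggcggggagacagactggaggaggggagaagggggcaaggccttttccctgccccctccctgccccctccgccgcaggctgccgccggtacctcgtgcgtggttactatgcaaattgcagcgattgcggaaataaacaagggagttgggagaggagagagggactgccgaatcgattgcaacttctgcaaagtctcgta
For each gene the first listed window that held the half-site was printed, so its presence was set by that choice. Each of the 3 windows held 1 half-site. A match of these letters is a description of the sequence, and no binding was measured on these arrays.

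Over all probesets the array medians of the log2 signal ranged from 6.39 to 6.42. Marker genes were set against the 348 olfactory receptor genes, which embryoid bodies are not expected to express. Their 95th percentile stood at a log2 signal of 5.66, below the array medians, and their median at 5.40. All 9 measured pluripotency genes and all 10 mesenchyme genes had a level above that percentile. So did 7 of 8 hepatic and visceral endoderm, 6 of 7 endothelial and 6 of 7 neural crest and Schwann cell markers. Of the neural progenitor and neuron markers 6 of 10 did, and of the cartilage markers 5 of 7. Markers of many cell types passed this line, so it does not settle the stage. A gene's level here is the mean log2 signal of its probesets. Probes differ in affinity, so a level set against these silent genes is a description and does not rank the genes by abundance.

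Of the 10 genes, 3 stood clear of every silent gene of this kind. GLUL had a level of 8.42 averaged over all arrays, SLC1A3 7.31 and SOX9 7.14, against a highest olfactory receptor gene at 6.30. NFIB at 6.10, NFIA at 5.98 and NFIX at 5.90 lay above 99.1% of olfactory receptor genes. These 3 levels were below the array medians over all probesets (6.39 to 6.42). GFAP at 5.70 and AQP4 at 5.69 lay just above the 95th percentile, GFAP on 2 of the 4 arrays and AQP4 on 3. ALDH1L1 at 5.52 and S100B at 5.25 lay below it, and S100B also lay below the median of the silent genes. The 4 genes at or near the silent level were therefore GFAP, AQP4, ALDH1L1 and S100B.

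**Figure D1:**
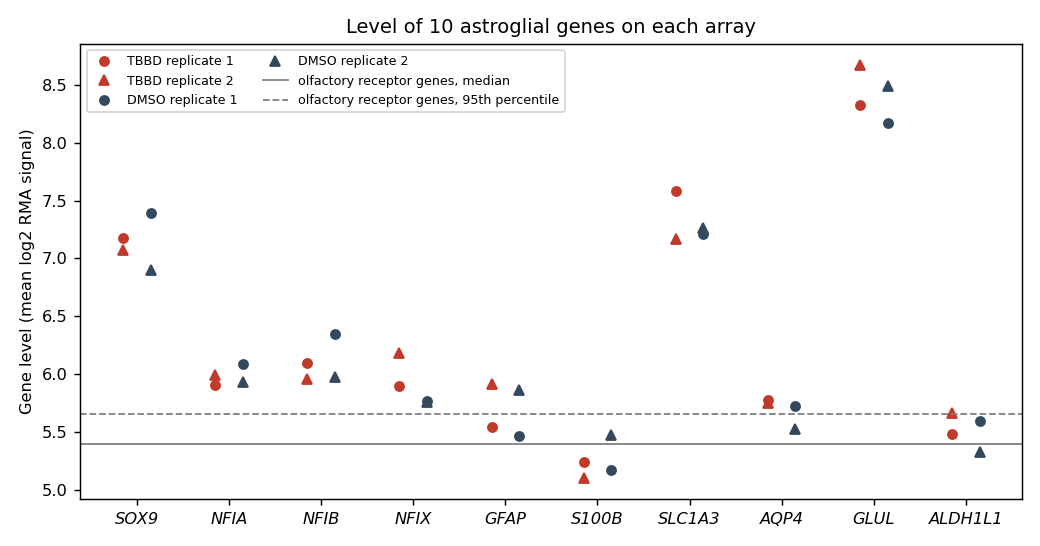
Level of each of the 10 genes (vertical axis, mean log2 RMA signal over its probesets) on each array, TBBD in red left of DMSO in dark blue, circles for replicate 1 and triangles for replicate 2. The solid and dashed lines are the median (5.40) and the 95th percentile (5.66) of olfactory receptor genes; GLUL, SLC1A3 and SOX9 stand well above both, and S100B and GFAP lie around them.

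The choice of silent genes mattered. Olfactory receptor genes had a median of 1 probeset each, and their probesets spread little (SD 0.28). Against 121 keratin-associated, taste receptor and beta-defensin genes, whose 95th percentile was 6.74, only SOX9, SLC1A3 and GLUL stood above. Against 19 measured many-exon genes of adult retina, gut, kidney, thyroid, muscle and skin, a set chosen after seeing the data, the 95th percentile was 5.87 and 6 genes stood above it, which left out GFAP and AQP4 as well as S100B and ALDH1L1.

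Probesets of the same gene differed widely in level. The 13 probesets of GLUL ran from 5.17 to 11.63 (SD 2.30), the 6 of SOX9 from 5.37 to 9.79 (SD 1.86) and the 13 of NFIX reached 8.93 (SD 1.38). NFIA was the most even, with 13 probesets between 5.44 and 6.45 (SD 0.34). The 95th percentile of single olfactory receptor probesets was 5.77. The array medians over all probesets, 6.39 to 6.42, also lay above it, so passing it does not set a probeset apart. Of the 120 probesets, 69 lay above it. These were all 13 of SLC1A3, 10 of 13 of GLUL, 10 of 12 of NFIB, 8 of 13 of NFIA, 6 of 13 of NFIX, 4 of 6 of SOX9, 4 of 10 of GFAP, 4 of 9 of AQP4, 9 of 26 of ALDH1L1 and 1 of 5 of S100B. The brightest GFAP probeset stood at 7.00 and the brightest S100B probeset at 6.22. Probesets of the many-exon silent genes, pooled over genes, had an SD of 0.78 and a 95th percentile of 7.10. A single bright probeset therefore does not show that its gene was expressed.

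**Figure D2:**
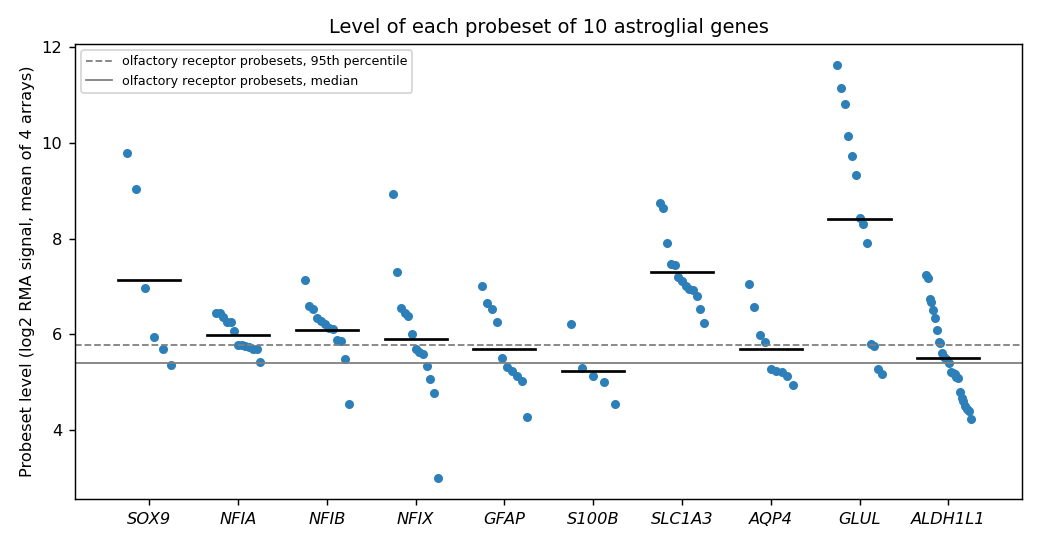
Level of each of the 120 probesets (vertical axis, log2 RMA signal averaged over the 4 arrays), sorted from high to low within each gene, with a black bar at the gene's mean. The dashed and solid lines mark the 95th percentile (5.77) and the median (5.40) of olfactory receptor probesets; all 13 SLC1A3 probesets lie above the dashed line and 1 of 5 S100B probesets does.

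TBBD and DMSO did not differ by the test for any of the 10 genes. In limma's test over all 18640 genes the adjusted p was 1 for each of them, as no gene passed (0% of all genes at an adjusted p under 0.05). At an unadjusted p under 0.05 there were also 0 of the 10, against 0.746% of all genes, and their unadjusted p ran from 0.112 for NFIX to 0.914 for SOX9. An exact permutation test of 2 arrays against 2 cannot give a p below 0.333. With TBBD 6 of the 10 means lay higher, against 48.8% of all genes, and 4 lower, against 51.2%. The median log2 difference was 0.09, against -0.0035 for all genes. The 95% confidence intervals had half-widths between 0.31 and 0.52, and together they ran from -0.57 to 0.65. In this model of the group alone, differences smaller than those half-widths were not detectable for these genes, even before adjustment. With the replicate number added to the model, the unadjusted p in limma ran from 0.069 for NFIX to 0.88 for SOX9.

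Among the regulators, NFIX had the largest difference of the 10 by the mean over all probesets and arrays. With bright probesets only, S100B and ALDH1L1 differed by more, at -0.37 and 0.35 against 0.23 for NFIX. Its level was 5.89 and 6.19 on TBBD arrays 1 and 2, against 5.77 and 5.76 on DMSO arrays 1 and 2. Both TBBD arrays lay above both DMSO arrays, by a log2 difference of 0.27 ± 0.14 (SE) with an interval from -0.09 to 0.64. NFIX takes part in astroglial differentiation in the mouse. Its brightest probeset read 9.19 and 8.98 with TBBD, against 8.76 and 8.78 with DMSO, and 4 of its 13 probesets were higher and 1 lower in both replicate numbers. Leaving out TBBD replicate 1 gave 0.42 (unadjusted p = 0.0475 in limma), and leaving out TBBD replicate 2 gave 0.13, less than the 0.34 of SLC1A3 in that fit. In 3 of the 4 fits with 1 array left out, all but the one without TBBD replicate 1, another of the 10 genes had a larger difference than NFIX.

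NFIA, the factor that gives the programme its name, had levels of 5.91 and 5.99 with TBBD, against 6.09 and 5.93 with DMSO. The groups overlapped, and the difference was -0.06 ± 0.12 (SE). Within NFIA the probesets disagreed. Of the 6 probesets of the whole set with an unadjusted p under 0.05 (limma on single probesets, which gives 2.69% of all probesets), 3 belonged to NFIA, and 1 of these was higher and 2 were lower with TBBD. The higher one, NFIA's second brightest, read 6.70 and 6.92 with TBBD, against 6.26 and 5.90 with DMSO. One of the lower ones, the fifth brightest, read 5.77 and 5.98 with TBBD, against 6.64 and 6.62 with DMSO. The other lower one, the 12th brightest, read 5.49 and 5.23 with TBBD, against 6.14 and 5.94 with DMSO. In the order given, the 3 log2 differences were 0.72, -0.76 and -0.68, and they enter the gene's mean with opposite signs. Of the 120 probesets 0 had an adjusted p under 0.05 (0% of all probesets).

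NFIB, which acts beside NFIA in gliogenesis, had levels of 6.10 and 5.95 with TBBD, against 6.35 and 5.98 with DMSO. Only TBBD 2 lay below both DMSO arrays, and the difference was -0.14 ± 0.17 (SE). It was 0.05 without DMSO replicate 1, the array with the highest NFIB level. Against the same-number control NFIB stood at -0.25 in replicate 1 and -0.02 in replicate 2.

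SOX9, a factor of neural stem cells that induces NFIA in the chick and mouse spinal cord, had levels of 7.17 and 7.08 with TBBD. The DMSO arrays enclosed these values, at 7.39 and 6.90. The difference was -0.02 ± 0.19 (SE), and it was -0.21 in replicate 1 and 0.17 in replicate 2. Its brightest probeset, which stood far above any silent gene, read 10.08 and 9.43 with TBBD, against 10.16 and 9.48 with DMSO. On that probeset the 2 treatments differed by -0.06, while the replicate 2 arrays lay lower than the replicate 1 arrays under both treatments.

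GFAP, a filament protein used as a marker of astrocytes, had levels of 5.55 and 5.92 with TBBD, against 5.47 and 5.86 with DMSO. Each treatment held one array below the silent 95th percentile and one above it, and in both treatments the higher array was replicate 2. Against the same-number control GFAP differed by 0.08 in replicate 1 and 0.06 in replicate 2, less than the 0.37 between the TBBD arrays and the 0.39 between the DMSO arrays. The difference over groups was 0.07 ± 0.20 (SE), with an interval from -0.45 to 0.59. By probesets, 2 of 10 were higher and 2 lower in both numbers. The brightest read 6.77 and 7.13 with TBBD, against 6.97 and 7.14 with DMSO, and the median over probesets gave -0.16 in place of 0.07, so the direction turned with the summary.

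S100B, a calcium-binding protein of astrocytes that cartilage also makes, had levels of 5.24 and 5.10 with TBBD, against 5.17 and 5.47 with DMSO. All 4 values lay below the silent 95th percentile, and 3 of them below the silent median of 5.40. Its difference of -0.15 ± 0.15 (SE) came with opposite signs in the 2 numbers, 0.07 in replicate 1 and -0.37 in replicate 2, and leaving out DMSO replicate 2 brought it to -0.0020. Without DMSO replicate 1 it was -0.30, and its 1 probeset above the silent 95th percentile gave -0.37. The direction also turned with the median over probesets, to 0.06.

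SLC1A3, the glutamate transporter GLAST of radial glia and astrocytes, had levels of 7.58 and 7.17 with TBBD, against 7.21 and 7.27 with DMSO. TBBD 1 was the high array and TBBD 2 the lowest, so the groups overlapped. In replicate 1 all 13 probesets were higher with TBBD and the gene differed by 0.37. In replicate 2 only 6 of the 13 were higher and the gene differed by -0.10. The difference over groups was 0.14 ± 0.17 (SE), and it was -0.07 without TBBD replicate 1 and 0.34 without TBBD replicate 2. With the median over probesets it was -0.0094.

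AQP4, the water channel of astrocyte end feet, had levels of 5.78 and 5.75 with TBBD, against 5.73 and 5.53 with DMSO. Both TBBD arrays lay above both DMSO arrays, by 0.05 in replicate 1 and 0.22 in replicate 2. The difference was 0.14 ± 0.13 (SE), with an interval from -0.19 to 0.46. It was 0.038 without DMSO replicate 2 and 0.24 without DMSO replicate 1. AQP4 and NFIX were the 2 genes of 10 whose groups did not overlap, both higher with TBBD, whereas 20.9% of all genes did not overlap, 10.5% with TBBD higher and 10.4% with TBBD lower. The brightest AQP4 probeset read 7.13 and 7.15 with TBBD, against 7.32 and 6.57 with DMSO, where the groups overlapped.

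GLUL, the glutamine synthetase of astrocytes, had levels of 8.32 and 8.67 with TBBD, against 8.17 and 8.49 with DMSO. As for GFAP, replicate 2 was the higher array under both treatments. Against its same-number control GLUL stood higher by 0.15 in replicate 1 and by 0.18 in replicate 2, and the difference over groups was 0.17 ± 0.19 (SE). Its brightest probeset read 11.52 and 11.73 with TBBD, against 11.48 and 11.77 with DMSO. The dimmest, at the level of silent probesets, read 6.02 and 5.25 with TBBD, against 4.53 and 4.86 with DMSO. With only probesets above the silent 95th percentile GLUL's difference was 0.095. Its 8 brightest probesets differed by between -0.05 and 0.71 in replicate 1 and by between -0.08 and 0.08 in replicate 2.

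ALDH1L1, a folate enzyme used as a general astrocyte marker, had levels of 5.48 and 5.66 with TBBD, against 5.60 and 5.32 with DMSO. The groups overlapped, with DMSO 1 between the TBBD arrays, and the difference was 0.11 ± 0.15 (SE). It was -0.11 in replicate 1 and 0.34 in replicate 2. Over its 26 probesets, 9 were higher and 4 lower in both numbers. The 9 probesets above the silent 95th percentile gave a larger difference of 0.35 (unadjusted p = 0.167 in limma).

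**Figure D3:**
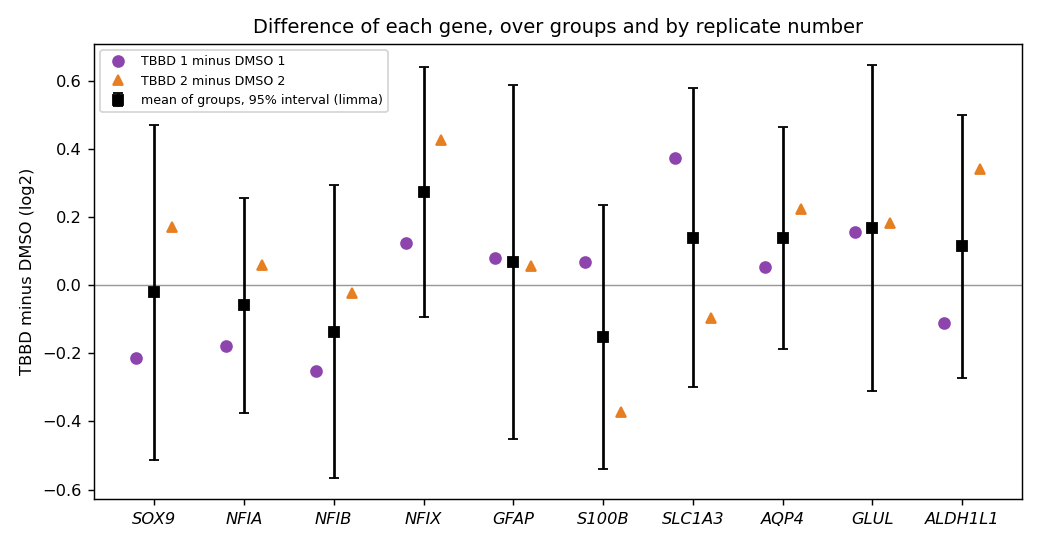
TBBD minus DMSO (vertical axis, log2) for each of the 10 genes. Black squares are differences of the group means with limma's 95% confidence interval, purple circles TBBD 1 minus DMSO 1 and orange triangles TBBD 2 minus DMSO 2; all 10 intervals include 0, and 5 of the genes have their circle and triangle on opposite sides of 0.

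The same-number differences had one sign for 5 of the 10 genes and opposite signs for the other 5, against 44.5% of all genes with one sign. GFAP, NFIX, AQP4 and GLUL were higher in both numbers (4 of 10, against 21.5% of all genes) and NFIB was lower in both (1 of 10, against 23.0%). The median over the 10 genes was 0.06 in replicate 1, with 6 higher, and 0.11 in replicate 2, with 7 higher. Over all genes it was -0.02 and 0.01 in the same order.

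The spread of probeset differences was wider below a level of 7 than at 9 or above. For the 8 probesets at a level of 9 or above, 6 of GLUL and 2 of SOX9, TBBD minus DMSO ran from -0.17 to 0.35 (SD 0.16). For the 94 below 7 it ran from -0.76 to 1.18 (SD 0.40). Of all 120 probesets, 36 were higher and 21 lower in both numbers. Another 59 had opposite signs, and 4 had a difference of 0 in a number. These counts were not set against those of all probesets on the arrays, and probesets of the same gene are not independent. They therefore do not show a lean of these genes as a set.

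**Figure D4:**
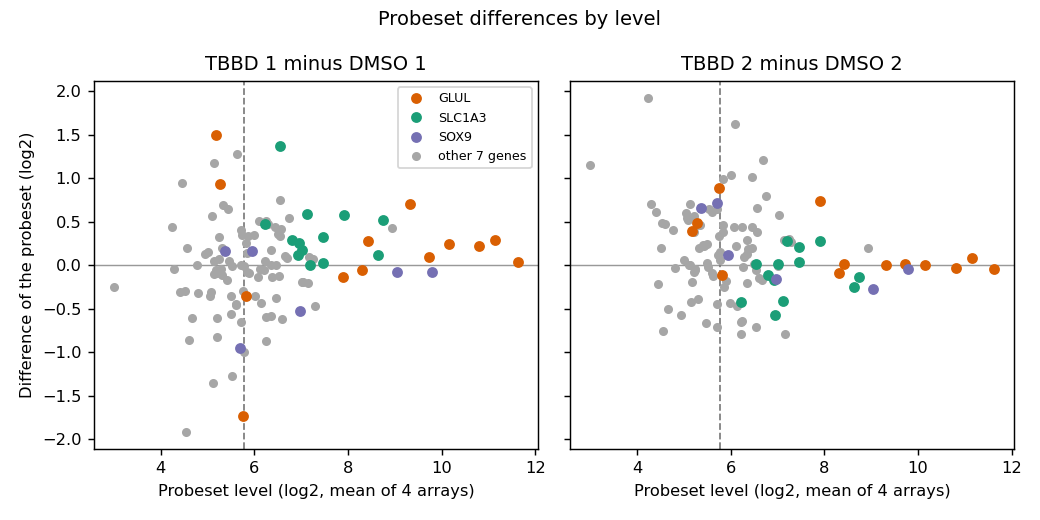
TBBD minus DMSO for each of the 120 probesets (vertical axis, log2) against its level (horizontal axis, log2 signal averaged over 4 arrays), replicate 1 on the left and replicate 2 on the right. GLUL, SLC1A3 and SOX9 are coloured and the dashed line is the 95th percentile of olfactory receptor probesets (5.77); in replicate 1 all 13 SLC1A3 points lie above 0.

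Several of the 10 genes differed more between replicate numbers than between treatments. The size of replicate 2 minus replicate 1 exceeded that of TBBD minus DMSO for 5 of the 10, against 66.3% of all genes. GFAP was higher on the replicate 2 arrays by 0.38 and GLUL by 0.34, and SOX9 differed there by -0.29 and NFIB by -0.26. In the same arrays all 10 mesenchyme markers were higher on replicate 2, by a median of 1.49, and all 8 measured hepatic and visceral endoderm markers by 1.63. The summed linear signal of the mesenchyme list was 3793 and 11442 on TBBD arrays 1 and 2, against 3204 and 10302.5 on DMSO arrays 1 and 2. COL1A1, a mesenchymal collagen, and the yolk sac and liver protein AFP were both high on the replicate 2 arrays, at 10.79 and 8.22 on TBBD 2. On the replicate 1 arrays AFP read 5.85 on TBBD 1, above the silent 95th percentile, and 5.50 on DMSO 1, below it, and COL1A1 read 9.20 and 8.90 in the same order. In bulk RNA, fewer cells of a type and less RNA per cell cannot be told apart, and the part of these cell types in the values of the 10 genes was not tested.

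Other astroglial genes were counted in the same way. Of 21 listed 20 were measured, 13 lay higher and 7 lower with TBBD, the median was 0.03, and 0 had an unadjusted p under 0.05. Of these 20, 15 stood above the olfactory receptor 95th percentile, a line that lies below the array medians over all probesets. GJA1, the gap junction protein connexin 43, had levels of 8.10 and 8.19 with TBBD, against 8.58 and 8.12 with DMSO. SLC1A2, the main glutamate transporter of mature astrocytes, lay at the silent level, at 5.44 and 5.45 with TBBD, against 5.46 and 5.33 with DMSO. HEPACAM, a cell adhesion protein of glia, and ACSBG1, an acyl-CoA synthetase, were named for the smallest unadjusted p of this list in limma. HEPACAM differed by -0.22 ± 0.16 (SE) and ACSBG1 by -0.12 ± 0.11, at levels of 5.03 and 5.45 over all arrays, in the same order. Most of the list lay higher, so these genes do not stand for it.

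Partners and targets of NFIA and SOX9 gave 6 higher and 3 lower of 9, with a median of 0.02. NFIC, the fourth nuclear factor I gene, had levels of 6.53 and 6.46 with TBBD, against 6.41 and 6.35 with DMSO, and its groups did not overlap at a difference of 0.11 ± 0.11 (SE). APCDD1, a target of SOX9 and NFIA in the mouse spinal cord, had levels of 6.12 and 7.69 with TBBD, against 6.63 and 7.26 with DMSO. Its replicate 2 arrays were the higher ones under both treatments. The developmental factor LHX2 differed by -0.08 ± 0.12.

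Genes of the signals that lead into the programme were counted next. Of 11 measured LIF, CNTF and JAK-STAT genes 6 lay higher and 5 lower, with a median of 0.01. The receptor subunit IL6ST had levels of 9.73 and 10.48 with TBBD, against 9.53 and 10.15 with DMSO, and STAT3 8.76 and 9.12 with TBBD, against 8.90 and 9.11 with DMSO. The cytokine gene CNTF, on 1 probeset, was the one gene of this list with an unadjusted p under 0.05 in limma (0.0290, lower, where 0.349% of all genes were). It read 5.35 and 5.56 with TBBD, against 6.03 and 5.79 with DMSO, where both TBBD values lay below the silent 95th percentile and both DMSO values above it, and its adjusted p was 1. LIFR, the LIF receptor, differed by 0.22 ± 0.17 (SE).

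Of the 10 Notch genes 4 lay higher and 6 lower, with a median of -0.02. The Notch effector HES1 had levels of 7.36 and 7.12 with TBBD, against 7.40 and 7.04 with DMSO, and the receptor NOTCH1 7.05 and 6.78 with TBBD, against 6.95 and 7.14 with DMSO. HES5, another effector, differed by 0.16 ± 0.16 (SE) and the ligand gene DLL3 by -0.28 ± 0.24. Among 11 BMP and ID genes 3 lay higher and 8 lower, with a median of -0.06. ID1, an inhibitor of proneural factors, had levels of 8.82 and 7.56 with TBBD, against 8.74 and 7.99 with DMSO, so that again the replicate numbers stood further apart than the treatments. The ligand BMP4 differed by -0.15 ± 0.32, BMP2 by -0.10 ± 0.18 and the receptor BMPR2 by 0.15 ± 0.14. None of the Notch or BMP genes had an unadjusted p under 0.05.

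Proneural factors and repressors of astroglial genes lay lower for 5 of 6 measured, with a median of -0.09. DNMT1, which maintains the DNA methylation that keeps GFAP silent in mouse neural progenitors, had levels of 8.60 and 8.39 with TBBD, against 8.86 and 8.46 with DMSO. NEUROG2, a proneural factor, read 5.22 and 5.07 with TBBD, against 5.24 and 5.36 with DMSO. NEUROG1 differed by -0.16 ± 0.18 (SE), and both neurogenin genes had a level below the silent 95th percentile.

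Markers of other cell types, some of which share genes with astroglia, came next. The neural list gave 1 gene past an unadjusted p of 0.05 in limma and the cartilage and neural crest lists 0, against 0.746% of all genes. Neural progenitor and neuron markers had 7 of 10 measured members higher, with a median of 0.13. The neural factor SOX1 had levels of 5.41 and 5.66 with TBBD, against 4.99 and 5.21 with DMSO, a difference of 0.43 ± 0.15 (SE) with an unadjusted p of 0.0360 (limma, adjusted p = 1). SOX1 lay below the silent 95th percentile on 3 of the 4 arrays and just above it on TBBD 2. PAX6, a factor of neural progenitors, differed by 0.20 ± 0.17, the neuronal tubulin TUBB3 by -0.17 ± 0.23 and the neuronal protein STMN2 by 0.33 ± 0.44. The summed linear signal of this list was 1017 and 1208 with TBBD, against 1074 and 1098 with DMSO. Cartilage markers had 3 of 7 higher, with COL2A1 at -0.25 ± 0.43 and ACAN at 0.06 ± 0.13, and neural crest and Schwann cell markers 2 of 7 higher, with SOX10 at 0.01 ± 0.23 and FOXD3 at -0.19 ± 0.24.

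Stem cell, endoderm, mesenchyme and endothelial markers were counted in the same way. All 9 measured pluripotency genes lay lower with TBBD, at a median of -0.21, and all 8 hepatic and visceral endoderm markers higher, at 0.18. Of all genes 51.2% lay lower and 48.8% higher. In both replicate numbers 6 of the 9 pluripotency genes were lower, against 23.0% of all genes. Of the 8 endoderm markers 5 were higher in both, against 21.5% of all genes. The others of these lists did not keep the same direction in both numbers. A shift of either list as a whole was not tested. The summed linear signal of the pluripotency list was 2313 and 1520 with TBBD, against 2464 and 1938 with DMSO, and that of the endoderm list 440 and 1461 with TBBD, against 403 and 1166 with DMSO. The stem cell factor POU5F1 differed by -0.31 ± 0.41 (SE), NANOG by -0.17 ± 0.13, AFP by 0.29 ± 1.09 and TTR, a carrier of thyroid hormone, by 0.32 ± 0.70. These SEs, from the model of the group alone, include the gap between replicate numbers, 2.43 for AFP and 1.55 for TTR. In replicates 1 and 2, POU5F1 differed by -0.01 and -0.60 and NANOG by -0.30 and -0.03. In the same order AFP differed by 0.35 and 0.24 and TTR by 0.39 and 0.25. Mesenchyme markers had 8 of 10 higher, with COL3A1 at 0.01 ± 0.98, and endothelial markers 6 of 7 higher, with PECAM1 at 0.20 ± 0.94 and CDH5 at 0.40 ± 0.40. At an unadjusted p under 0.05 in limma stood 1 pluripotency gene, lower, and 1 mesenchyme gene, higher (0.349% of all genes were lower and 0.397% higher). In these 13 lists 0 genes had an adjusted p under 0.05 in limma.

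**Figure D5:**
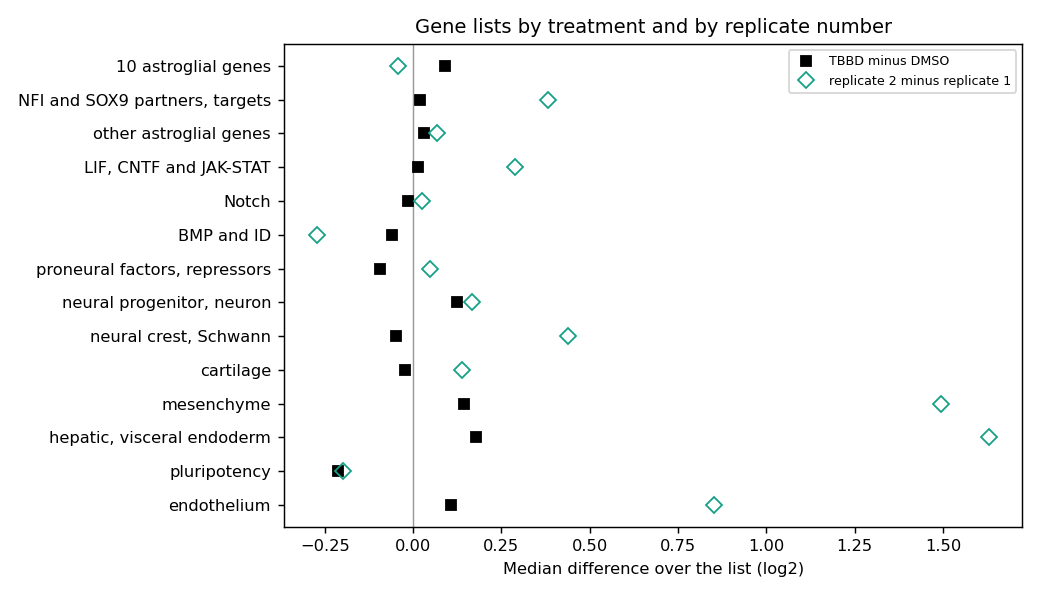
Median log2 difference of each gene list (horizontal axis) for TBBD minus DMSO (black squares) and for replicate 2 minus replicate 1 (open green diamonds). The medians of the 10 astroglial genes sit near 0 on both, at 0.09 and -0.04, though by replicate number single genes ran from -0.29 (SOX9) to 0.38 (GFAP). The medians of the mesenchyme (1.49) and the hepatic and visceral endoderm (1.63) lists lie far to the right by replicate number.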

How the data were processed

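Values were the authors' RMA signals on a log2 scale, deposited as 1 value per probeset and array. RMA is named in the submitters' processing notes, with no version, settings or genome build given there. That the scale is log2 follows from the range of the values. In 358 cells stood a placeholder near 0, and 277 probesets with such cells were dropped. Probesets with 1 symbol in the platform annotation were named, with older symbols updated through a RefSeq table, and their log2 values averaged to 18640 genes. All 10 symbols were current, and 0 probesets of these genes held a placeholder.

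TBBD was compared with DMSO by limma 3.58.1 in R 4.3.3 in a model of the group alone. The test was two-sided and p-values were adjusted by Benjamini-Hochberg across all genes, with a threshold of 0.05. Olfactory receptor genes served as silent genes. The 10 genes and all lists were chosen with earlier results of these data known. Beside the 10 genes, those named were the defining genes of each list and, in pathway lists, the 2 with the smallest unadjusted p. The other probesets described were picked after their values were seen. Alternatives covered normalization, the summary over probesets, filters on dim or sparse features, leaving out each array, limma's prior, a block for the replicate number, and other silent genes. The number of arrays limits the precision.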

Additional observations from a re-analysis of the deposited data

How the results depend on the processing

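Under every alternative, the fit of single probesets included, limma called 0 genes at the adjusted threshold, and so 0 of the 10. Genes at an unadjusted p under 0.05 (139) became 249 with the median over probesets, 90 with at least 3 probesets, 225 with an intensity trend and 137 to 320 with 1 array left out. At that level 0 of the 10 genes passed, and 0 to 1 did with 1 array left out, NFIX without TBBD replicate 1. The replicate number as a block gave 496 such genes and no adjusted call. The labels do not say what the numbers share, and across genes the deviations of same-number arrays correlated at r = 0.57.

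Of 89 values of single genes under alternatives that kept all arrays, 4 turned sign, all with the median over probesets: SOX9 to 0.032, GFAP to -0.16, S100B to 0.056 and SLC1A3 to -0.0094. Of 40 with an array left out, 9 turned (SOX9, NFIA, NFIB and GFAP without DMSO replicate 1, ALDH1L1 without DMSO replicate 2, SLC1A3 without TBBD replicate 1, and SOX9, GFAP and GLUL without TBBD replicate 2), and NFIX, AQP4 and S100B did not. The ranges were -0.26 to 0.22 for SOX9, -0.14 to 0.019 for NFIA, -0.32 to 0.050 for NFIB, -0.13 to 0.26 for GFAP, -0.067 to 0.34 for SLC1A3, -0.0073 to 0.34 for GLUL and -0.022 to 0.25 for ALDH1L1. Such fits leave the replicate numbers unequal and assume that the lone array varies like the others. By replicate number, the median over probesets turned GFAP to -0.21 in replicate 1 and -0.11 in replicate 2, S100B to 0.060 in replicate 2 and AQP4 to -0.012 in replicate 1. Bright probesets alone turned SOX9 to -0.087 and GFAP to -0.12 in replicate 2 and ALDH1L1 to 0.16 in replicate 1. The cause was not tested. The 8 genes above the silent level became 3 with keratin-associated, taste receptor and beta-defensin genes as silent genes, and between 6 and 9 under the other settings, of which many-exon genes and the brightest probesets of each gene were chosen after seeing the data.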
